A study of Mus musculus with 12 samples.

Results

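The 8 genes described here, Tcf7, Lef1, Foxo1, Klf2, Myb, Bcl6, Satb1 and Dapl1, are regulators or markers of naive and memory T cells. They were taken by symbol from a fixed list, and all 8 were found among the 24421 gene symbols of the count tables and passed the filter on low counts, as did 11727 symbols in all. The 12 libraries are polyadenylated RNA of CD8+ T cells, the cytotoxic lymphocytes, from spleens of C57BL/6 mice, a common inbred strain. DMSO, the solvent, was given to the control cells (n = 6 libraries), and an EZH2 inhibitor (EZH2i) to the treated cells (n = 6 libraries). Within Polycomb repressive complex 2, EZH2 places methyl groups on lysine 27 of histone H3, a mark of silent genes. The sources used here do not give the inhibitor's name, its dose, how long the cells were exposed, or the age of the mice. Neither group carries a genetic change that the labels name. Whether each library stands for its own mouse or culture is not stated. A p-value here therefore sets the difference between the groups only against the spread of these libraries, and that spread may be technical.

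Naive and memory T cells stay quiescent, recirculate through lymphoid organs and keep the ability to divide again, and a small set of transcription factors maintains this state. TCF-1 (encoded by Tcf7) and LEF-1 bind DNA through an HMG box and keep the gene programme of naive and memory-precursor cells. FOXO1, a forkhead factor held out of the nucleus by the kinase AKT, sustains Klf2, and KLF2 in turn sustains homing genes such as S1pr1. MYB and BCL6 sustain stem-like and memory cells, BCL6 as a repressor opposed to Blimp-1 (Prdm1). SATB1 organises chromatin loops in thymocytes and naive T cells. Dapl1 encodes a small protein related to death-associated protein and is used as a marker of naive T cells.

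With EZH2i, Klf2 rose to 150.1% and Myb to 148% of the DMSO level, and Dapl1 fell to 46.7%. Tcf7, Lef1, Foxo1, Satb1 and Bcl6 did not pass the test on all 12 libraries. At a Benjamini-Hochberg adjusted p under 0.05 in the quasi-likelihood test of edgeR, 2 of the 8 genes were higher, where 13.3% of all tested genes were, and 1 was lower, where 6.05% were. The median log2 fold change of the 8 genes was 0.14, beside -0.01 over all tested genes. With the replicate number as a block in the model, Bcl6 and Satb1 were called as well, so that 4 of 8 were higher (24.7% of all tested genes in that fit) and 1 was lower (24.3%). Without the libraries numbered 6 the same 4 were higher (24.1% of all tested genes) and Dapl1 was lower (20.0%).

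The promoters of the 3 genes that were called on all 12 libraries are shown because they differ in CpG content, the sequence feature that marks most known Polycomb targets in mammals. The windows are those of RefSeq on GRCm38.p6, 250 bases before to 50 bases after a transcription start, read 5′ to 3′ on the strand of the gene. CpG dinucleotides are in capitals.
Dapl1, chr2:59484403-59484702, plus strand: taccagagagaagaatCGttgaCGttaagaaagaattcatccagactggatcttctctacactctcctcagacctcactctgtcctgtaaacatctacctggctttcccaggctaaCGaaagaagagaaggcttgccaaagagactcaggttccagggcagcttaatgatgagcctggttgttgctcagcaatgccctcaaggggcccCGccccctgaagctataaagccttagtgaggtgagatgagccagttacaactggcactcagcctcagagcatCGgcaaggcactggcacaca
Klf2, chr8:72318812-72319111, plus strand: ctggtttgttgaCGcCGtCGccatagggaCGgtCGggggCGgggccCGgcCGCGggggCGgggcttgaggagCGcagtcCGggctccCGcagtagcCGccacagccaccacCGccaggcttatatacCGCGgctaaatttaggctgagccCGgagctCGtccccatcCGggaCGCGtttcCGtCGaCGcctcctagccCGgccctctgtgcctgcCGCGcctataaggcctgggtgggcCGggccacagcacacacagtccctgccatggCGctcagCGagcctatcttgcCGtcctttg
Myb, chr10:21160935-21161234, minus strand: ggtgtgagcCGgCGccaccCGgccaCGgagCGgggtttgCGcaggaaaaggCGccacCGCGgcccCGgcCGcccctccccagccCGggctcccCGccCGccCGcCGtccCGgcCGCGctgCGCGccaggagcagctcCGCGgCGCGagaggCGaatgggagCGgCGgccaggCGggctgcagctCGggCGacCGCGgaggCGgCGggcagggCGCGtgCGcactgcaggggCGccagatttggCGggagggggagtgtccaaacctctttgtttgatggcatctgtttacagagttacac

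The Dapl1 window held 5 CpG dinucleotides, the Klf2 window 32 and the Myb window 40. The median over 32851 RefSeq windows of this length was 7. Fewer CpGs than in the Klf2 window were found in 90.5% of windows, and fewer than in the Dapl1 window in 38.0%. All 8 genes matched a RefSeq window. In the most CpG-rich window of each of the other genes there were 45 CpGs for Tcf7, 45 for Satb1, 31 for Bcl6, 31 for Foxo1 and 21 for Lef1. By this measure Dapl1, the gene that fell, had the fewest, and CpG-rich windows were found both in genes that rose and in genes that missed the test.

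Short patterns bound by these factors were searched on both strands of the windows. The pattern GTAAACA, bound by FOXO factors and present in 3.65% of all windows, began 164 bases before the start of Dapl1, at base 34 of the Myb transcript and at base 2 from the second of the RefSeq starts of Tcf7. The MYB pattern TAACNG (23.3% of windows) lay at the start of Dapl1, beginning 1 base before it. It was also found in windows of Lef1, Bcl6, Foxo1 and Satb1, so that 5 of the 8 genes held it. Some genes had several windows, 4 for Lef1, 5 for Satb1 and 2 each for Tcf7 and Bcl6. Some windows of Lef1 and of Satb1 overlap. A gene with more windows has more chances of a match, so a count of genes cannot be set beside a share of windows. The TATA box core TATAAA, added after the sequences were seen and searched on the sense strand alone (8.32% of windows), began 29 bases before the start of Dapl1 and was found in no other window of the 8 genes. The TCF and LEF pattern CTTTGAT (3.73%) was found in none of them, and the Klf2 window held no exact match to any pattern. Only exact matches were counted. The Klf2 window does hold TATAAG, which differs from the TATA box core in its last letter, so it may not lack a TATA-like element. The BCL6 pattern TTCCTNGAA (1.59%) was found in the second Bcl6 window, and the KLF pattern CCACACCC (3.56%) in the second Tcf7 window. No matches overlapped in the Dapl1 window. These matches describe the letters of the windows and not binding.

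Library totals ran from 17215483 to 28092434 counts in DMSO and from 19610258 to 31206228 in EZH2i. The first principal component (45.2% of the variance) placed the library numbered 6 at -64.1 in DMSO and -23.3 in EZH2i. The other DMSO libraries lay between -20.1 and -9.58 and the other EZH2i libraries between 28.3 and 35.7. Number 6 was therefore far from the other 5 libraries of its group in each case, and results are given with and without it. Levels are given as CPM, the count relative to the TMM-scaled library size, and ± is the SD over 6 libraries. The Ezh2 transcript, which an inhibitor of the enzyme need not change and which does not check the labels, stood at 278 ± 29.4 CPM with DMSO and at 234 ± 26.6 CPM with EZH2i (adjusted p = 0.0833; 0.000757 with the replicate block).

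The identity of the cells was read from marker genes. Of 8 listed CD8 T cell markers 7 were measured, and their summed level was 3468 to 4739 CPM in DMSO and 2532 to 3896 CPM in EZH2i. By edgeR 2 of these 7 were called lower and 0 higher, beside 6.05% and 13.3% of all tested genes. At an unadjusted p under 0.05 3 were lower and 0 higher, and by DESeq2 2 were lower and 0 higher. With the block 5 were lower and 0 higher, beside 24.3% and 24.7% of all tested genes. Cd3g, a chain of the T cell receptor complex, fell from 551 to 427 CPM on average (adjusted p = 0.0488; 0.115 with upper-quartile scaling), and Cd8a, the defining coreceptor chain, from 1091 ± 31.1 to 885 ± 47.3 CPM (adjusted p = 0.00129). Most summed levels of the markers of other cells were low. They were 14.9 to 25.2 CPM over 8 B cell markers, of which only Cd79b passed the filter on low counts, and 2.55 to 10.9 CPM over 7 natural killer cell markers. They were 2.68 to 7.56 CPM over 10 markers of macrophages, monocytes and dendritic cells, at most 0.357 CPM over 6 granulocyte markers and at most 1.04 CPM over 7 erythroid and platelet markers. The natural killer cell markers Klra8 and Klra4 and the erythroid markers Hba-a1, Hbb-bs, Hbb-bt and Alas2 had 0 counts in all libraries. The CD4 T cell list summed to 17.4 to 23.0 CPM in DMSO and 23.8 to 34.8 CPM in EZH2i, with Cd4 itself at 0.0887 ± 0.0994 and 0.0983 ± 0.130 CPM. The list of stroma and endothelium summed to 60.4 to 195 CPM, nearly all of it Pecam1 (163 ± 37.9 and 146 ± 43.5 CPM, named outside the naming rule), an adhesion gene that T cells also express, with the collagen gene Col1a1 at 0.264 ± 0.170 and 0.610 ± 0.271 CPM (adjusted p = 0.0831). Klrb1c, a natural killer receptor gene, rose from 0.852 ± 0.356 to 5.10 ± 2.098 CPM (adjusted p = 8.77e-05), Itgax, an integrin gene of dendritic cells, from 0.513 ± 0.339 to 2.01 ± 0.741 CPM (adjusted p = 0.00726), and Zbtb7b, a factor of the CD4 lineage, from 14.6 ± 1.85 to 22.2 ± 3.99 CPM (adjusted p = 0.00654). The part of these changes in the results on the 8 genes was not tested. In bulk libraries, fewer cells of a type and less RNA per cell cannot be told apart.

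**Figure D1:**
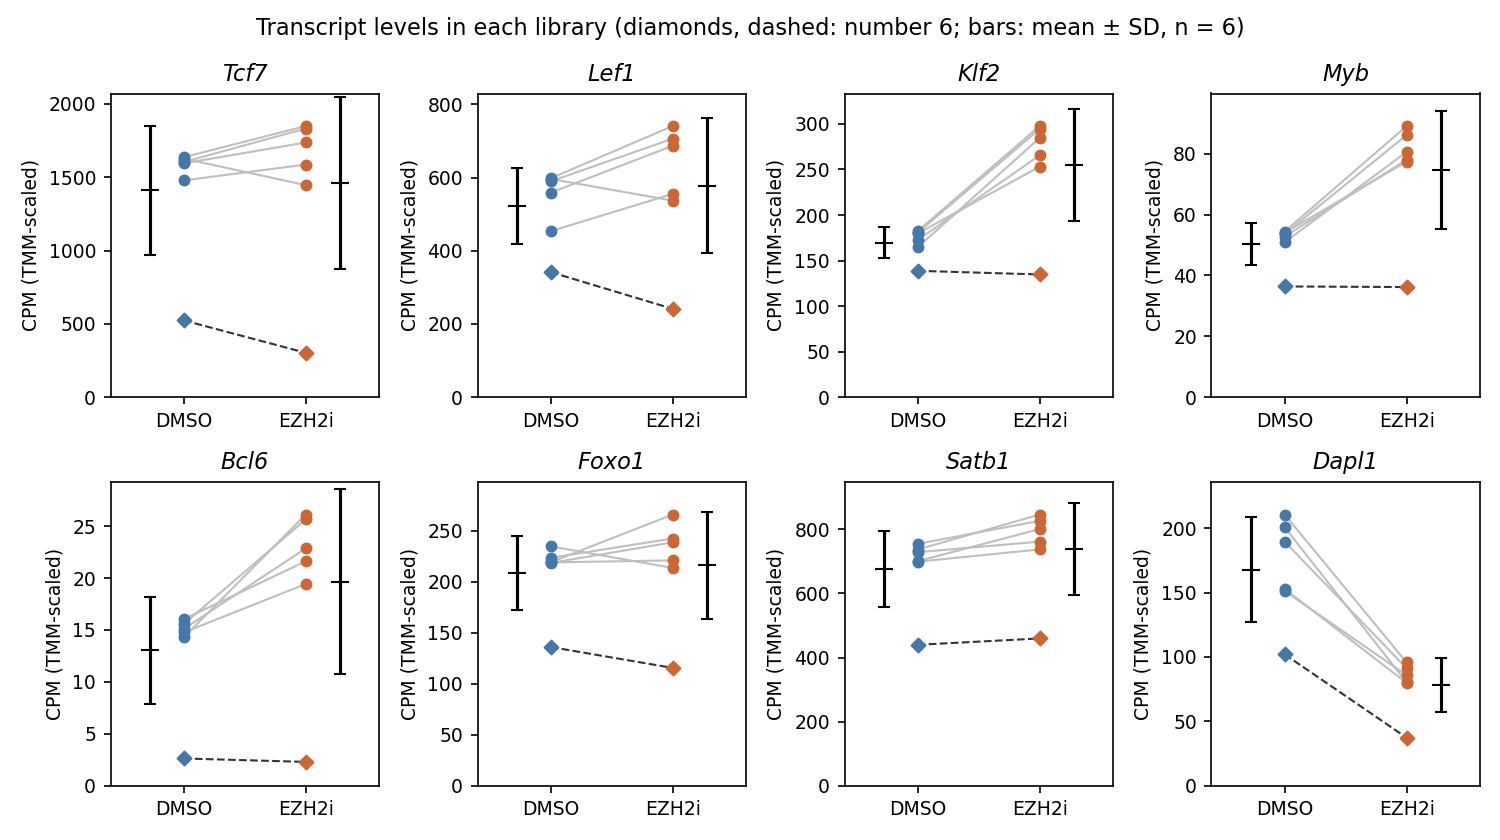
Transcript level in CPM (TMM-scaled) of each of the 8 genes in every library, with DMSO in blue and EZH2i in orange, lines between same-numbered libraries, diamonds and a dashed line for number 6, and bars for the mean ± SD (n = 6). Number 6 was the lowest library of its group in every panel, and Dapl1 was the gene whose groups did not overlap.

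Among the 8 genes, levels can be compared only per length. Divided by the exonic length of the gene in GENCODE M21, the median level in DMSO was highest for Tcf7 at 609 CPM per kb, followed by Dapl1 (252), Klf2 (95.4), Lef1 (65.4), Satb1 (37.6), Foxo1 (25.3), Myb (5.96) and Bcl6 (2.23). Each of the 7 neighbours in this order stood in the same order in 6 of 6 DMSO libraries. Across libraries the ranges of Tcf7 and Dapl1, of Lef1 and Satb1, and of Satb1 and Foxo1 overlapped, with number 6 holding the lowest value of each gene. In EZH2i the order was the same except that Klf2, at 149 CPM per kb, stood above Dapl1, at 122, in 5 of 6 libraries. The exonic length joins all annotated transcripts, so it overstates the length of a gene with many of them, such as Satb1 (19.0 kb, 14 transcripts).

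Tcf7 encodes TCF-1 and lies on chromosome 11 from 52252371 to 52283014 in GRCm38. Its level in DMSO was 523 CPM at the lowest, 1599 at the median and 1637 at the highest, and in EZH2i 303, 1662 and 1849 CPM. The groups overlapped, and number 6 was the lowest in each. Its log2 fold change was 0.05 with a 95% interval from -0.74 to 0.84 (adjusted p = 0.948). On all 12 libraries the spread therefore left room for a change of over 1.5-fold in either direction. With the replicate block the log2 fold change was -0.06 (95% interval -0.27 to 0.15) and without number 6 it was 0.10 (-0.05 to 0.24), and neither passed the test. Same-numbered libraries differed in sign: EZH2i was higher in numbers 1 to 4 and lower in number 5 (log2 ratio -0.17) and number 6 (-0.79). The count does not separate the long TCF-1 isoforms, which bind β-catenin, from the short ones.

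Lef1, the close relative of Tcf7, lies on chromosome 3 from 131110471 to 131224356. It stood at 342, 574 and 598 CPM in DMSO (lowest, median and highest) and at 241, 621 and 741 CPM in EZH2i, with overlapping groups. Its log2 fold change was 0.14 (95% interval -0.35 to 0.64, adjusted p = 0.713). Leaving out DMSO library 6 gave 0.047, leaving out EZH2i library 6 gave 0.30, and neither was called. The sign followed that of Tcf7 in each number, with log2 ratios from 0.26 to 0.31 in numbers 1 to 4, -0.15 in number 5 and -0.50 in number 6. With number 6 left out and the block kept, Lef1 was called higher by 0.21 on the log2 scale (adjusted p = 0.00947). Without number 6 and without the block it missed the threshold (0.22, adjusted p = 0.0748).

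Partners of TCF-1 and LEF-1 and genes of the canonical Wnt pathway were tested for 20 of 24 listed symbols, and their median log2 fold change was -0.07. By edgeR 4 were called higher and 0 lower, beside 13.3% and 6.05% of all tested genes, while 4 were lower at an unadjusted p under 0.05 and 2 were called lower by DESeq2. Upper-quartile scaling called 7 higher. Tle3, a Groucho corepressor that binds TCF factors, rose from 137 ± 2.34 to 183 ± 6.91 CPM (adjusted p = 5.82e-05). Its relative Tle2 rose from 1.02 ± 0.294 to 2.88 ± 1.121 CPM (adjusted p = 0.00562). The Wnt coreceptor gene Lrp5 rose from 19.8 ± 3.10 to 35.4 ± 1.39 CPM (adjusted p = 7.64e-05). Jup, which encodes plakoglobin, a relative of β-catenin, rose from 0.433 ± 0.153 to 2.74 ± 0.907 CPM (adjusted p = 0.000114). With the block 7 of these genes were higher and 7 lower, beside 24.7% and 24.3% of all tested genes. β-catenin itself (Ctnnb1, named outside the naming rule for its role as the partner of both factors) stood at 362 ± 20.7 and 373 ± 14.1 CPM (adjusted p = 0.628).

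Foxo1 lies on chromosome 3 from 52268336 to 52353221. It stood at 136, 219 and 235 CPM in DMSO (lowest, median and highest) and at 115, 230 and 266 CPM in EZH2i, with overlapping groups. The log2 fold change was 0.05 (95% interval -0.34 to 0.44, adjusted p = 0.877). The replicate block narrowed the interval to -0.10 to 0.16, and leaving out number 6 gave -0.03 to 0.22, so these fits bounded the change at less than 1.5-fold. Of 16 tested genes of the forkhead box O family and its kinase pathway, 3 were called higher and 2 lower, beside 13.3% and 6.05% of all tested genes (median log2 fold change 0.09). Phlpp1, a phosphatase that removes phosphate from AKT, rose from 31.01 ± 2.45 to 57.7 ± 4.18 CPM (adjusted p = 5.12e-06). Inpp5d, the lipid phosphatase SHIP-1, rose from 105 ± 6.13 to 133 ± 4.14 CPM (adjusted p = 0.000706). Sgk1, a kinase that phosphorylates FOXO factors, fell from 22.6 ± 3.27 to 15.4 ± 2.30 CPM (adjusted p = 0.00611). With the block 7 of the 16 were higher and 3 lower, where 24.7% and 24.3% of all tested genes were.

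Klf2, the quiescence and homing factor, lies on chromosome 8 from 72319033 to 72321656. Its level was 139, 176 and 182 CPM in DMSO (lowest, median and highest) and 135, 275 and 298 CPM in EZH2i. The 5 EZH2i libraries other than number 6 lay at 253 CPM and above, higher than every DMSO library, and number 6 lay at the bottom of each group. With number 6 the groups overlapped. How many of all tested genes separate in this way once EZH2i number 6 is set aside was not counted, so the separation is only described. The log2 fold change was 0.59 (SE 0.16, 95% interval 0.24 to 0.93, adjusted p = 0.0207). In numbers 1 to 5 the log2 ratio was 0.49 to 0.79, and in number 6 it was -0.04. Without number 6 the log2 fold change was 0.67 (adjusted p = 6.42e-08). The call was lost when EZH2i library 4 (adjusted p = 0.0507) or EZH2i library 5 (adjusted p = 0.0511) was left out.

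Genes that KLF2 and FOXO1 are known to sustain were read beside Klf2 (3 genes named outside the naming rule, after their values were seen). S1pr1, the receptor for exit from lymphoid organs, stood at 442 ± 113 CPM with DMSO and at 456 ± 164 CPM with EZH2i (adjusted p = 0.936). Ccr7, the lymph node chemokine receptor, stood at 471 ± 56.4 and 441 ± 98.2 CPM (adjusted p = 0.714). Il7r, the interleukin 7 receptor chain, stood at 262 ± 83.5 and 261 ± 87.97 CPM (adjusted p = 0.986). None of the 3 passed the test on all 12 libraries.

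Of the 20 naive and memory surface and homing genes, all tested, 1 was called higher and 2 lower, where 13.3% and 6.05% of all tested genes were (median log2 fold change -0.08). Ramp1, a receptor-modifying protein, rose from 2.01 ± 0.524 to 4.86 ± 1.43 CPM (adjusted p = 0.00276). Il6ra, the interleukin 6 receptor, fell from 81.2 ± 5.48 to 61.3 ± 5.73 CPM (adjusted p = 0.00177), and Treml2 from 180 ± 5.95 to 157 ± 8.81 CPM (adjusted p = 0.0202; 0.0883 with upper-quartile scaling). In the fit with the block 3 of the 20 were higher and 9 lower, beside 24.7% and 24.3% of all tested genes. In the Krüppel-like factor family other than Klf2, 11 of 16 genes were tested, 1 was called higher and 2 lower, beside the same shares of all tested genes, 13.3% and 6.05%. Klf9 rose from 11.4 ± 2.62 to 18.5 ± 2.99 CPM (adjusted p = 0.00528), Klf11 fell from 19.4 ± 3.15 to 12.1 ± 2.19 CPM (adjusted p = 0.00355), and Klf10 fell from 26.3 ± 4.85 to 16.7 ± 3.74 CPM (adjusted p = 0.00783). Klf14, Klf15 and Klf17 had 0 counts in all libraries.

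Myb lies on chromosome 10 from 21124935 to 21160984. It stood at 36.4, 53.2 and 54.4 CPM in DMSO (lowest, median and highest) and at 36.2, 79.3 and 89.1 CPM in EZH2i. As for Klf2, 5 EZH2i libraries lay above all of DMSO, from 77.4 CPM, and number 6 was the lowest in each group. The share of all tested genes with such a separation was not counted. The log2 fold change was 0.57 (SE 0.18, 95% interval 0.17 to 0.96, adjusted p = 0.0466). In numbers 1 to 5 the log2 ratio was 0.52 to 0.71, and in number 6 it was -0.01. This call was close to the threshold: it was lost in 11 of the 12 fits that leave out 1 library, with adjusted p from 0.0617 to 0.1005, and held with adjusted p = 0.000130 without EZH2i library 6. Without both libraries numbered 6 the log2 fold change was 0.64 (adjusted p = 1.26e-07), and with the block it was 0.53 (adjusted p = 4.28e-05).

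Bcl6 had the lowest level of the 8 genes, on chromosome 16 from 23965052 to 23988852. It stood at 2.62, 14.9 and 16.0 CPM in DMSO (lowest, median and highest) and at 2.29, 22.2 and 26.1 CPM in EZH2i. The 5 libraries of EZH2i other than number 6 lay above all of DMSO, from 19.4 CPM, a separation whose share over all tested genes was not counted. Its log2 fold change was 0.58, as large as those of Klf2 and Myb, but with an interval from -0.45 to 1.61 on all 12 libraries (adjusted p = 0.445). With the replicate block the interval was 0.34 to 0.75 and Bcl6 was called higher (adjusted p = 0.000233). Without number 6 it was called higher too (log2 fold change 0.62, adjusted p = 1.76e-05). Within number 6 the log2 ratio was -0.19. Of 8 corepressors that work with BCL6, 1 was called higher and 0 lower by edgeR, beside 13.3% and 6.05% of all tested genes. DESeq2 gave the same counts, and at an unadjusted p under 0.05 2 were higher and 0 lower. With the block 2 were higher and 1 lower, beside 24.7% and 24.3% of all tested genes. The histone deacetylase gene Hdac4, called with the group alone, rose from 24.4 ± 2.01 to 30.95 ± 2.64 CPM (adjusted p = 0.00889).

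Satb1 lies on chromosome 17 from 51736187 to 51833290. It stood at 440, 715 and 755 CPM in DMSO (lowest, median and highest) and at 460, 781 and 846 CPM in EZH2i, with overlapping groups. Its fold change was 0.13 on the log2 scale (95% interval -0.21 to 0.46, adjusted p = 0.628). The value was 0.029 when DMSO library 6 was left out and was 0.23 when EZH2i library 6 was, and neither was called. EZH2i was higher in 6 of 6 same-numbered libraries, which held for 21.2% of all tested genes, with log2 ratios from 0.06 to 0.20. For Satb1 alone, number 6 was not the number with the lowest ratio, but numbers 4 and 6 were nearly level (0.06375 and 0.06384). With the block the log2 fold change was 0.12 and passed the threshold by a small margin (adjusted p = 0.0462).

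Dapl1 lies on chromosome 2 from 59484653 to 59505020. It stood at 102, 171 and 211 CPM in DMSO (lowest, median and highest) and at 37.3, 83.1 and 95.8 CPM in EZH2i. Here alone among the 8 genes the groups did not overlap, with every EZH2i library under every DMSO library, as for 2.74% of all tested genes. None of the 8 had all EZH2i libraries above all DMSO libraries, as 7.5% of all tested genes did. The log2 fold change was -1.10 (SE 0.22, 95% interval -1.57 to -0.63, adjusted p = 0.00315). EZH2i was lower in 6 of 6 same-numbered libraries, as for 19.2% of all tested genes, with log2 ratios from -0.82 to -1.32 in numbers 1 to 5 and -1.45 in number 6. It was called lower in all 12 fits that leave out 1 library, with log2 fold changes from -1.21 to -0.96. Of the 3 genes called on all 12 libraries, Dapl1 was thus the one whose ratio in number 6 had the sign of the other numbers.

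**Figure D2:**
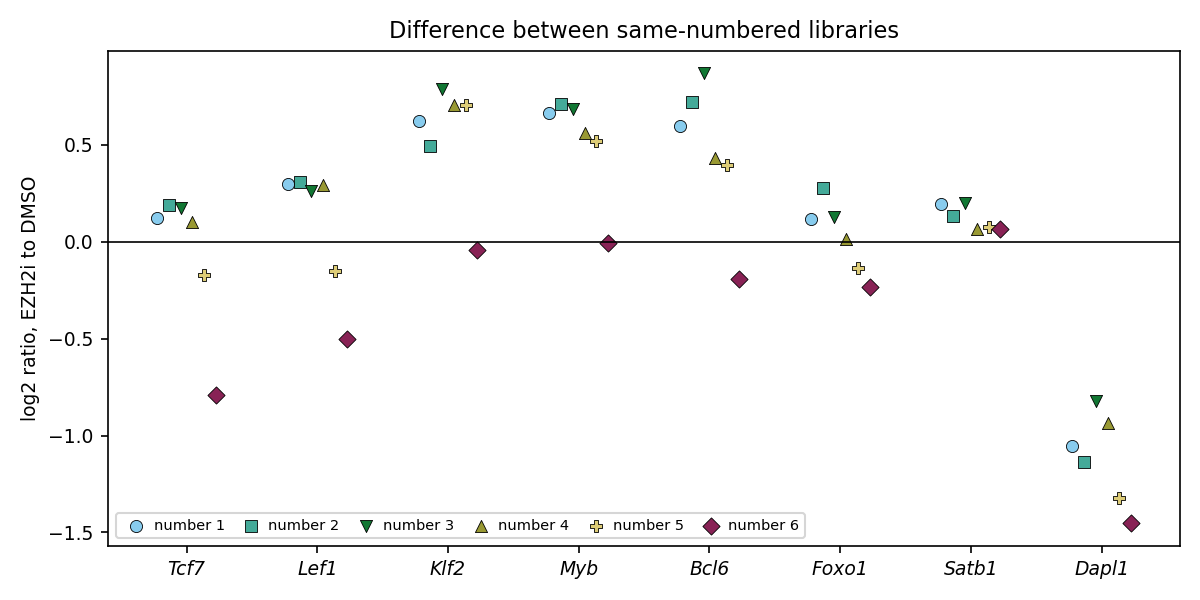
Log2 ratio of EZH2i to DMSO between same-numbered libraries for each of the 8 genes, with 1 symbol per replicate number. Number 6 lies below the other numbers for 7 of 8 genes, and is nearly level with the lowest, number 4, for Satb1. Dapl1 lies below 0 in every number.

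**Figure D3:**
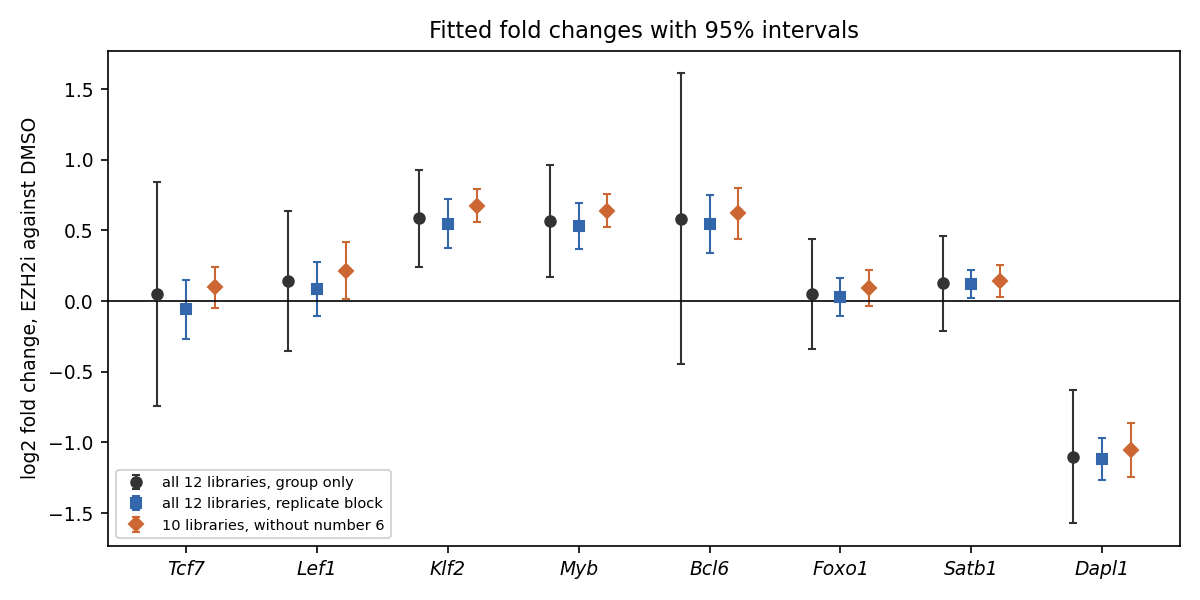
Fitted log2 fold change of EZH2i against DMSO with its 95% interval for each gene, from all 12 libraries with the group alone, from all 12 with the replicate number as a block, and from the 10 libraries without number 6. The intervals of Klf2, Myb and Dapl1 exclude 0 in the 3 fits, and that of Bcl6 runs from -0.45 to 1.61 with the group alone.

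Library number 6 held the lowest level of its group for all 8 genes in DMSO and for all 8 in EZH2i. Among all tested genes, number 6 was the lowest library for 37.1% in DMSO and for 42.8% in EZH2i. The gap was widest for Bcl6, at 2.62 CPM in DMSO number 6 against 15.2 ± 0.679 CPM (SD, n = 5) in the other DMSO libraries, 5.79-fold lower, and at 2.29 against 23.1 ± 2.80 CPM in EZH2i, 10.1-fold lower. Tcf7 was 3.03-fold lower in DMSO number 6 and 5.59-fold lower in EZH2i number 6. Klf2 had the smallest gap in DMSO (1.27-fold lower) and was 2.07-fold lower in EZH2i. For each of the 8 genes the gap was larger in EZH2i than in DMSO, least so for Satb1 (1.73-fold and 1.65-fold). With 1 such library in each group, these differences have no replicate and no test.

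**Figure D4:**
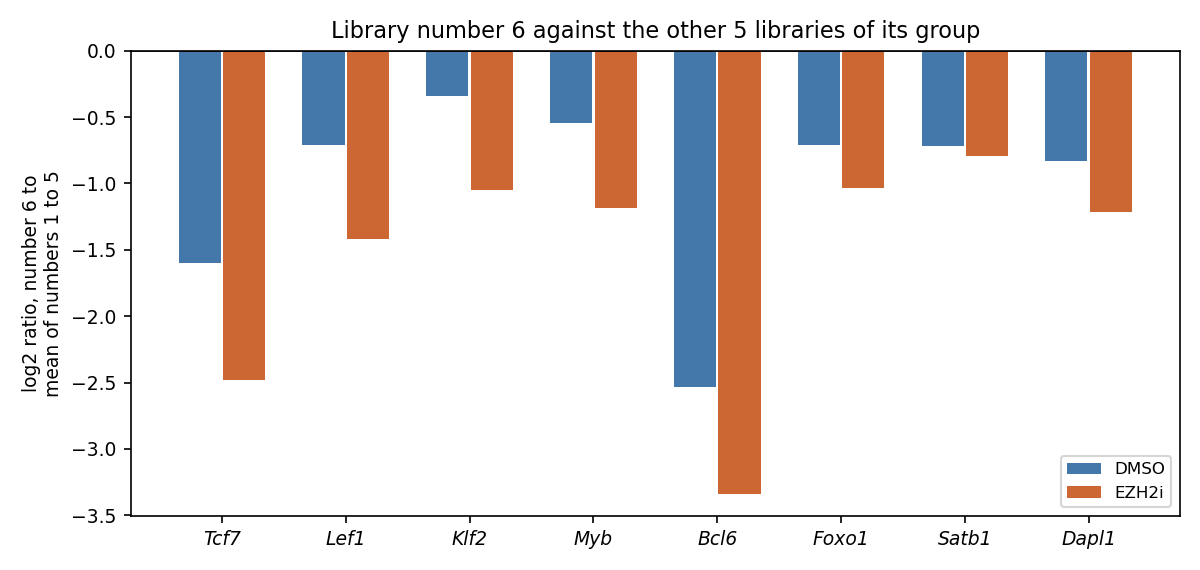
Log2 ratio of library number 6 to the mean of numbers 1 to 5 of its own group, for DMSO (blue bars) and EZH2i (orange bars). All 16 bars lie below 0, and they are longest for Bcl6 (-2.53 and -3.34) and Tcf7 (-1.60 and -2.48).

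Other genes of the naive and effector states differed in number 6 as well. Of the 20 surface and homing genes, 15 were lowest in number 6 in DMSO and 16 in EZH2i. Of 16 other transcription factors of naive and memory cells 12 and 13 were. The shares of all tested genes lowest in number 6 were 37.1% in DMSO and 42.8% in EZH2i. Of 14 tested effector factors and markers, 8 were highest in number 6 in DMSO and 9 in EZH2i, where 35.7% and 36.5% of all tested genes were. The summed level of the effector list was 4624 CPM in DMSO number 6 against 2231 to 2984 CPM in the other DMSO libraries, and 5530 against 2801 to 3381 CPM in EZH2i. Most of this gap came from 2 genes, named outside the naming rule: Gzmb, the granzyme B gene, stood at 2456 and 3132 CPM in number 6 of the groups, and Il2ra, a chain of the interleukin 2 receptor, at 889 and 872 CPM. Cd44, an activation and memory marker also named outside it, was lowest in number 6 of each group, at 95.3 and 113 CPM. CD8 T cell markers were lower there as well, with 6 of 7 lowest in number 6 in DMSO and 7 of 7 in EZH2i, beside the same 37.1% and 42.8%. Sums for B cells, at 19.2 and 14.9 CPM, and for macrophages, monocytes and dendritic cells, at 2.68 and 3.03 CPM, were the lowest of their groups in number 6. The sum of natural killer cell markers was 10.9 CPM in EZH2i number 6, against 6.13 to 7.54 CPM in the other EZH2i libraries, and lay within the range of the others in DMSO. The part of these differences in the levels of the 8 genes was not tested.

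Of the 16 other transcription factors of naive and memory T cells, all tested, 4 were called higher and 0 lower by edgeR, beside 13.3% and 6.05% of all tested genes (median log2 fold change 0.16). At an unadjusted p under 0.05 1 was lower, and by DESeq2 7 were called higher and 0 lower. Eomes, a T-box factor of memory cells, rose from 70.5 ± 25.5 to 140 ± 76.9 CPM (adjusted p = 0.0339), and was highest in number 6 of each group, at 119 and 294 CPM. Gfi1, a repressor, rose from 43.6 ± 6.51 to 60.1 ± 8.08 CPM (adjusted p = 0.0152). Stat3, the signal transducer of interleukins 6 and 10, rose from 194 ± 14.8 to 245 ± 25.8 CPM (adjusted p = 0.0108), and the E protein gene Tcf12 from 198 ± 17.3 to 246 ± 35.05 CPM (adjusted p = 0.0462). Under the block 8 of the 16 were higher and 5 lower, where 24.7% and 24.3% of all tested genes were.

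The effector list held 5 of 14 tested genes called higher and 0 lower by edgeR, beside 13.3% and 6.05% of all tested genes (median log2 fold change 0.37). At an unadjusted p under 0.05 1 was lower, and DESeq2 called 7 higher and 1 lower. With the block 9 of the 14 were higher and 2 lower, beside 24.7% and 24.3% of all tested genes. Prdm1, which encodes Blimp-1, the factor opposed by BCL6, rose from 7.32 ± 0.580 to 14.6 ± 2.23 CPM (adjusted p = 4.08e-05). Bcl6 itself was not called in the same fit on all 12 libraries (adjusted p = 0.445). The granule protease gene Gzma rose from 4.21 ± 1.65 to 36.4 ± 17.1 CPM (adjusted p = 5.82e-05), Zeb2 from 2.12 ± 0.551 to 3.89 ± 0.890 CPM (adjusted p = 0.00986) and the perforin gene Prf1 from 5.07 ± 0.682 to 7.38 ± 1.33 CPM (adjusted p = 0.0138). Of 5 paralogs of the 8 genes outside the families above, 3 were tested and 0 were called by edgeR with the group alone or with the block, 0 by DESeq2, and 0 reached an unadjusted p under 0.05 with the group alone. Mybl2, the proliferation-linked relative of Myb, stood at 82.2 ± 5.37 and 75.0 ± 4.55 CPM (adjusted p = 0.170).

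For each of the 8 genes, the other genes with the most similar profile were ranked by Pearson's r of log2 CPM over the 12 libraries, among 8553 genes with a mean of at least 10 CPM. These points share the treatment split and the outlying number 6, so r over the 10 libraries without number 6 is given beside it, as a description. Nsg2 (r = 0.995), Serinc3 (0.993) and Bbs9 (0.993) were nearest to Tcf7, with r of 0.663, 0.783 and 0.795 without number 6. Klf3, a Krüppel-like factor, was nearest to Lef1 (0.992, and 0.957 without number 6). For Klf2 the nearest were Serpinb1a, Dgat1 and Galnt2, each with r of 0.98 over both sets of libraries. Dym (0.991 and 0.980) was nearest to Myb, Calcoco1 to both Bcl6 (0.995 and 0.942) and Satb1 (0.991 and 0.892), and Kiz to Foxo1 (0.991 and 0.852). H3f3a, a gene of histone variant H3.3, was nearest to Dapl1 (0.980 and 0.982). Leaving out number 6 lowered r most for Tcf7 and Foxo1 and changed it little for Klf2, Myb and Dapl1.

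Annotated genes overlap several of the 8, and no source used here gives the strand setting of the counting. On the opposite strand, Gm43352 shares 1208 exonic bases with Lef1, Gm20402 shares 674 with Foxo1, Gm26577 shares 559 with Myb, Gm6934 shares 128 with Satb1 and Gm37419 shares 21 with Bcl6. Gm36931 shares 156 with Satb1 on the same strand. Reads from these genes cannot be told apart from those of the 8 if strand was not used, and none of the 6 was analysed here. Tcf7, Klf2 and Dapl1 share no exonic base with another annotated gene.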

How the data were processed

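Each library has a deposited table of raw counts by gene symbol. The submitters' processing notes name featureCounts, TopHat2 2.1.1, Trimmomatic 0.38, FastQC 0.11.7 and SAMtools 1.9, and the build GRCm38 (mm10). No source used here gives the annotation, the strand setting or the treatment of multi-mapped reads. The analysis used edgeR 4.0.16 in R 4.3.3: filterByExpr at default settings, TMM scaling and the two-sided quasi-likelihood test with the group alone, with Benjamini-Hochberg adjustment over 11727 genes, called at an adjusted p under 0.05. The SE is the log2 fold change divided by the square root of F, and 95% intervals use the t distribution of that fit. Log2 CPM for the principal components and profiles has a prior count of 2. DESeq2 1.42.0, other scalings, no filter, left-out libraries and a replicate block were alternatives.

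The groups share the replicate numbers 1 to 6, which the labels do not explain. Across genes, deviations from the group mean correlated between the libraries that share a number, with r of 0.213, 0.445, 0.286, 0.527, 0.317 and 0.847. All exceed 0.1, and the numbers were therefore read as pairs, on the data and not on the labels. In 3 of the 6 numbers (1, 3 and 5) a library did not correlate best with its own number. Without number 6 the lowest r was 0.0371, so the pairing of numbers 1 to 5 is not settled. No library was a duplicate of another: the lowest chi-square between 2 libraries of a group, divided by its degrees of freedom, was 4.86.

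The members and lists were chosen with earlier results of these data known, and the TATA box core was added after the promoters were seen. Named genes are the 8 members, the called genes of a list with the largest changes (at most 4) or, with none called, its gene with the smallest p, and the 3 most similar genes of a member. Positions and exonic lengths are from GENCODE M21 (GRCm38) and promoter windows from RefSeq (GRCm38.p6). Some genes of the lists are counted but not reported here by name.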

Additional observations from a re-analysis of the deposited data

Results flagged for a closer look

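In a group of 6 libraries, a library was singled out where its gap to the nearest other, relative to the whole range, exceeded Dixon's 95% limit, which chance passes in about 1 in 20 groups. Of 86 gene and group combinations over 43 named genes 27 were singled out, 26 of them at number 6, and 12 of these concerned the 8 genes. Number 6 stood apart as the lowest library for Tcf7 (523 CPM in DMSO and 303 CPM in EZH2i), Myb (36.4 and 36.2 CPM), Bcl6 (2.62 and 2.29 CPM), Foxo1 (136 and 115 CPM) and Satb1 (439.7 and 459.6 CPM) in both groups. It did so in EZH2i alone for Klf2 (135 CPM) and Dapl1 (37.3 CPM), and for Lef1 in neither group.

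Among the other named genes, number 6 stood apart as the lowest for Ramp1 in DMSO (1.01 CPM), Jup in EZH2i (0.960 CPM), Gfi1 in EZH2i (44.2 CPM), Stat3 in both groups (165 and 196 CPM), Tcf12 in DMSO (163 CPM) and Gzma in DMSO (0.953 CPM). It was the highest for Klf9 in DMSO (16.4 CPM), Klf10 in EZH2i (24.2 CPM), Eomes in both groups (119 and 294 CPM), Gzma in EZH2i (70.7 CPM), Klrb1c in EZH2i (9.26 CPM) and Jun in DMSO (72.8 CPM). EZH2i library 3 was the highest for Inpp5d, at 141 CPM.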

How the results depend on the processing

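The count of called genes, 2266 over all tested genes (1557 higher, 709 lower), rose with the replicate block to 5741 (2892 and 2849), without both libraries numbered 6 to 5174 (2824 and 2350) and with both changes to 5827 (3089 and 2738). It ran from 1725 to 4018 when 1 library was left out, with 1294 to 2230 higher and 431 to 1788 lower, the highest being without EZH2i library 6. With upper-quartile scaling 347 were lower and 83.8% of calls were higher against 68.7%, and DESeq2 called 1125 lower. Of the 8 genes, 2 were higher on all 12 libraries, 4 with the replicate block, 4 without number 6, 5 with both, and 0 to 3 when 1 library was left out: 0 without EZH2i library 4 or EZH2i library 5, and 3 without EZH2i library 6. Dapl1 was lower in every fit. The log2 fold change of Tcf7 reversed to -0.057 with the replicate block. With 1 library left out, the log2 fold change of Tcf7 ran from -0.12 to 0.26 and was below 0 without DMSO library 6 or EZH2i library 1, 2 or 3, and the log2 fold change of Foxo1 ran from -0.045 to 0.18 and was below 0 without DMSO library 6 or EZH2i library 2. The cause was not tested. Of 817 fold changes of named genes under the alternatives, 738 kept their sign and their side of the threshold. Bcl6 had the fewest counts of the 8 genes, 1842 in DMSO and 3096 in EZH2i.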

Other observations

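Some proliferation and early stress genes, which the comparison above does not use, were called too. Of 6 proliferation markers, 2 were called lower and 0 higher by edgeR, beside 6.05% and 13.3% of all tested genes. By DESeq2 and at an unadjusted p under 0.05, 3 were lower and 0 higher. With the block 3 were lower and 0 higher, beside 24.3% and 24.7% of all tested genes. Pcna, the clamp of DNA replication, fell from 632 ± 39.6 to 481 ± 46.7 CPM (adjusted p = 0.00190), and the helicase subunit gene Mcm5 from 443 ± 35.1 to 355 ± 27.8 CPM (adjusted p = 0.00601). Pcna was highest in number 6 of each group (699 CPM with DMSO and 564 CPM with EZH2i), as was Mcm5 (506 and 405 CPM). By contrast, 3 of the 6 markers were lowest in number 6 with DMSO and 2 of 6 with EZH2i, beside 37.1% and 42.8% of all tested genes. Of 6 tested early stress genes, 2 were called higher and 0 lower by edgeR, beside 13.3% and 6.05% of all tested genes. The counts were the same by DESeq2 and at an unadjusted p under 0.05. With the block 3 were higher and 0 lower, beside 24.7% and 24.3% of all tested genes. Jun rose from 48.5 ± 12.6 to 77.0 ± 7.28 CPM (adjusted p = 0.00478) and Atf3 from 2.33 ± 0.634 to 4.04 ± 0.901 CPM (adjusted p = 0.0152).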
